A study of Mus musculus with 56 samples.

Results

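The transcripts of 8 clock repressor genes were followed in mouse kidney: the period genes Per1, Per2 and Per3, the cryptochrome genes Cry1 and Cry2, and Ciart, Bhlhe40 and Bhlhe41. They were chosen by name, as the genes whose products turn down the circadian activator, and are 8 of the 17027 genes in the kidney table. All 8 passed the filter on low values (mean of at least 1 TPM, a level scaled to transcript length and library size) and were therefore among the 12365 genes tested. The 56 kidney samples came from C57BL/6J female mice, 9 weeks old, kept in 12 h of light and 12 h of dark, with no genetic change. For 7 days feeding was restricted, either to daytime (DRF) or to nighttime (NRF). NRF is the control, since mice eat mainly at night. Kidneys were taken at ZT0, 4, 8, 12, 16, 20 and 24, where ZT is zeitgeber time in hours from lights on, with 4 samples in each of the 14 groups. Nothing in the sources used here says whether the 4 came from separate mice, so p-values measure the spread between these samples. Each regimen thus gave 28 samples, and ZT24 is the same clock time as ZT0. The comparison asks whether each transcript kept its time in the light-dark cycle or moved with the meals.

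The mammalian clock is a feedback loop. The activator pair CLOCK and BMAL1 binds E-box elements and switches on the Per and Cry genes, and the PER and CRY proteins return to the nucleus and silence that activator. CIART (also called CHRONO) is a further repressor of the same activator, and BHLHE40 and BHLHE41 (DEC1 and DEC2) bind the same E-boxes and compete with it. D-box elements, bound by DBP, TEF, HLF and the repressor NFIL3, add rhythms of another phase. Per1 and Per2 also respond to acute signals such as glucocorticoids, cAMP and feeding. In the kidney, clocks in tubule cells are known for daily rhythms of sodium and water handling.

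All 8 transcripts lay closer to their NRF profile at the same clock time than at the same time after the meal (49.2% of all tested genes did), and all 8 departed from a profile moved by 12 h (45.8% did). Of the 6 rhythmic under both regimens, Per2, Ciart, Cry1 and Per3 peaked 2.0 to 3.3 h earlier under DRF than under NRF, a direction called in 58.6% of all genes rhythmic under both, whereas Cry2 differed by -0.05 h with a 95% interval of -1.54 to 1.44 h. The daily swing was smaller under DRF by point estimate in every member, and Per3 alone of the 6 members tested passed. Large differences of level stood at some times of day and not at others. Under DRF Per2 was 8.38 times higher at ZT4, and Per1 was 3.26 times higher at ZT0 and 4.28 times at ZT24. Ciart was 3.51 times higher under DRF at ZT4, but 4.39 times higher under NRF at ZT12.

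The genes span chr11:69095217-69109960 (Per1, plus strand), chr1:91415982-91459324 (Per2, minus), chr4:151003652-151044665 (Per3, minus), chr10:85131700-85185064 (Cry1, minus), chr2:92403646-92434043 (Cry2, minus), chr3:95878503-95882251 (Ciart, minus), chr6:108660629-108666925 (Bhlhe40, plus) and chr6:145858243-145865558 (Bhlhe41, minus) on GRCm38. Promoter stretches are shown here because the elements in them differ between the members. RefSeq start sites on GRCm38.p6, the build named for these data, were given for 6 of the 8 members. Each stretch is the longest run without an annotated exon of the gene in the 250 bases before the start. The Per1 stretch lies inside the span given above for that gene. Positions count back from the RefSeq start. Capitals mark E-boxes (CACGTG), E'-boxes (CACGTT) and D-boxes (TTANGTAA), searched on both strands, and each sequence runs 5′ to 3′ on the gene's own strand. They lie at chr11:69098699-69098947 on the plus strand for Per1, and on the minus strand at chr4:151044666-151044915 for Per3, chr10:85185065-85185304 for Cry1, chr2:92434070-92434319 for Cry2, chr3:95882252-95882478 for Ciart and chr6:145865559-145865670 for Bhlhe41.
Per1: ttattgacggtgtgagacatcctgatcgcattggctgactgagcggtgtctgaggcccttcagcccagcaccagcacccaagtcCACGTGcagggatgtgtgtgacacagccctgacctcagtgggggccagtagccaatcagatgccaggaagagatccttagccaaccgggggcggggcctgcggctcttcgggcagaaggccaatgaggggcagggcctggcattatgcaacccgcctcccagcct
Per3: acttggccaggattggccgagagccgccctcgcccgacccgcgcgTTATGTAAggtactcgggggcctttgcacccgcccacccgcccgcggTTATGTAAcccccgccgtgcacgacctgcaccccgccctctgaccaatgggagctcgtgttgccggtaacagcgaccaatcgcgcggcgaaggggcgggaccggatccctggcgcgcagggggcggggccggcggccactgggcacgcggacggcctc
Cry1: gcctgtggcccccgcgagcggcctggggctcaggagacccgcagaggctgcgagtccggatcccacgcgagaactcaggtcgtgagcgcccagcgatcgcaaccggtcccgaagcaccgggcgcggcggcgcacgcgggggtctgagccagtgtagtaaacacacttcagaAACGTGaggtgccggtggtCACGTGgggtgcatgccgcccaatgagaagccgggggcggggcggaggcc
Cry2: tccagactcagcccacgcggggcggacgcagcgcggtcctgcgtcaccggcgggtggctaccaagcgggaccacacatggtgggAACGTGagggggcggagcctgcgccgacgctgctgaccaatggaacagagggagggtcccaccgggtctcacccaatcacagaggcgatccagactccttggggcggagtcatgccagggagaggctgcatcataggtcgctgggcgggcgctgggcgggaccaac
Ciart: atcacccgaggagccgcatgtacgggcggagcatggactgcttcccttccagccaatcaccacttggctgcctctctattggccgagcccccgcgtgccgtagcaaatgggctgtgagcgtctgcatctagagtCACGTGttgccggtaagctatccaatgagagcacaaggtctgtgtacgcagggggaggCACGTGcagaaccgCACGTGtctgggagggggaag
Bhlhe41: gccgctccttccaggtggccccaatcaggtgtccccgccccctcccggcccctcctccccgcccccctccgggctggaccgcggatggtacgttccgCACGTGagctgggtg
Ciart held 3 E-boxes in the 250 bases before its start, with first letters at -116, -58 and -44. Per1 (at its upstream start), Cry1 and Bhlhe41 held 1 E-box each, at -166, -60 and -153. Cry1 and Cry2 each held 1 E'-box, at -79 and -166. Per3 held 2 D-boxes and no E-box, at -205 and -158. The other Per1 start given by RefSeq held none of these elements. None of the 6 members with a given start held a full CRE (TGACGTCA), the element bound by CREB. Per2 and Bhlhe40 were not searched. Of all 32851 promoters of the same length, 6.02% held an E-box, 3.85% an E'-box, 2.06% a D-box and 1.55% a CRE, and 0.429% held more than 1 E-box. These matches describe letters only, and binding was not measured.

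The tissue was kidney by its markers. Proximal tubule Slc34a1 had a median of 3540 TPM and thick ascending limb Umod 4937 TPM. Of 5 markers of the adrenal gland, which lies on the kidney, 3 had a row: the cholesterol carrier Star had a median of 5.01 TPM, the receptor Mc2r 0.261 TPM and the steroid enzyme Cyp11a1 0.112 TPM. The 4 blood markers summed to 834 to 10133 TPM and the 4 liver markers to 232 to 753 TPM. The exon lengths of all 4 blood markers and of the liver marker Serpina1a could not be settled, so these sums are less exact. Markers of fat varied between samples. Adipoq, made by fat cells, had a median of 2.05 TPM but reached 362 TPM in NRF ZT12 replicate 1 and 240.3 TPM in NRF ZT16 replicate 1. The 4 fat markers summed to 0.437 to 694 TPM under NRF (median 3.44) and 0.249 to 176 TPM under DRF (median 5.24). The part of these lists in the results was not tested. NRF ZT12 replicate 1 had the highest value of its group for 2 members and the lowest for 3, and NRF ZT16 replicate 1 the highest for 1 and the lowest for 2. Over the genes whose lengths were settled, each sample held 22.2 to 24.6 M reads (M, mega) recovered from the deposited values. Replicate samples correlated at a median r of 0.989 across genes. NRF ZT8 replicate 4 had the highest value of its group for 7 of the 8 members, and DRF ZT8 replicate 3 the lowest for 7. Calls at ZT8 that change without either library are given below.

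**Figure D1:**
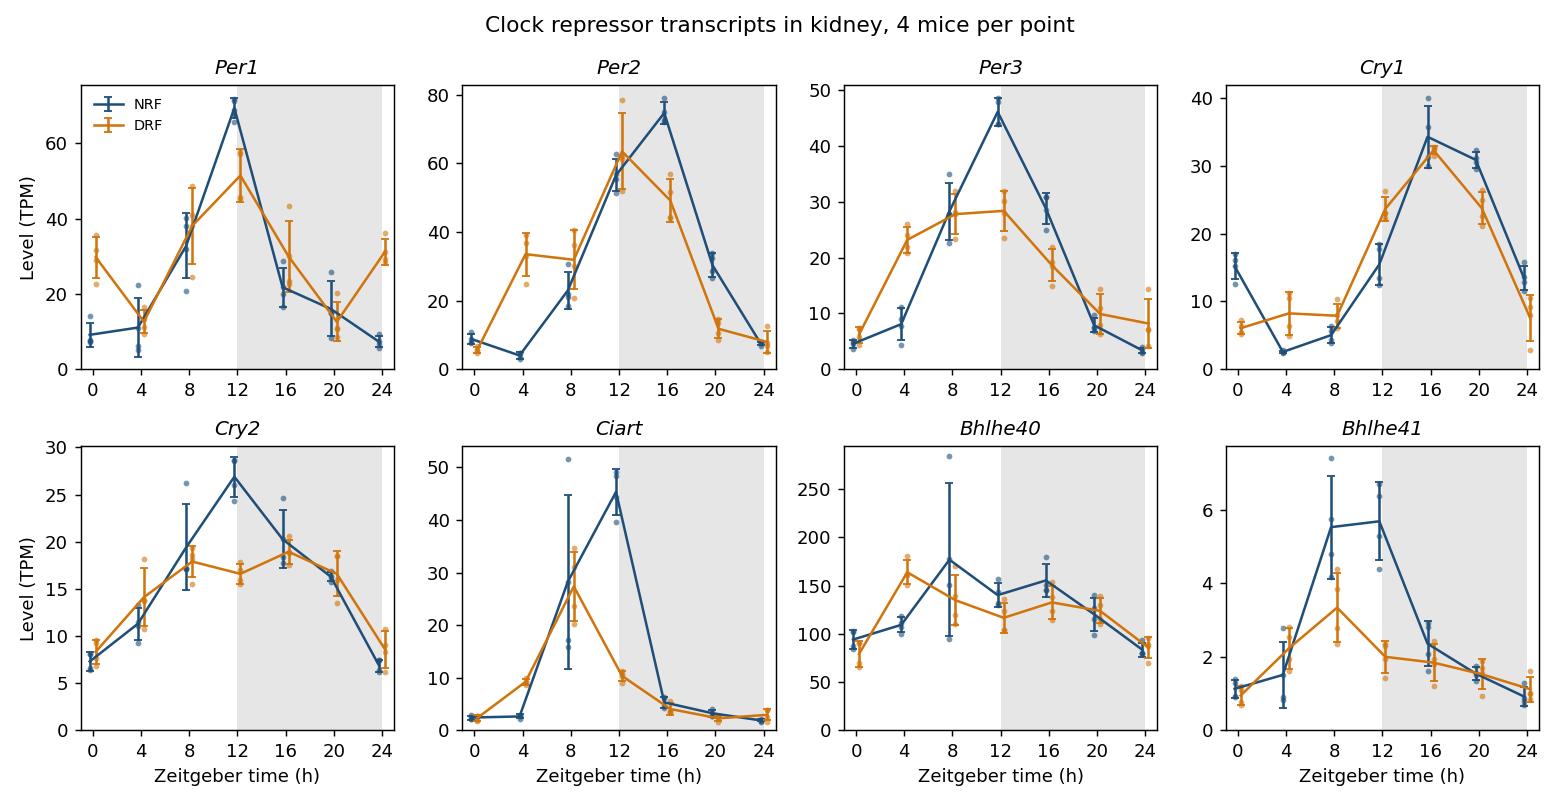
Level in TPM (linear axis from 0) of each gene against zeitgeber time in hours, for NRF (blue) and DRF (orange). Points are single samples, lines and bars are group means ± SD (n = 4), and grey marks the dark phase. The title speaks of 4 mice, but the sources used here do not say whether the 4 samples came from separate mice. The highest group mean falls at ZT8, ZT12 or ZT16 in every curve but that of Bhlhe40 under DRF (ZT4), Per2 stands at 33.5 TPM against 3.998 at ZT4, and Per1 has a further crest at ZT0 and ZT24 under DRF.

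Under NRF all 8 members had a 24-h rhythm, where 54.2% of all tested genes did. Under DRF 6 of the 8 did, where 35.9% of all tested genes did, and 25.4% were rhythmic under both. Per1 (adjusted p = 0.0575) and Bhlhe40 (adjusted p = 0.0540) missed the threshold of 0.05 under DRF, and each passed it in 7 of 56 fits that left out a single library. The rhythm differed between regimens for 7 of 8 members, where it did for 45.2% of all tested genes, with Bhlhe40 as the exception (adjusted p = 0.275), and for 4 when ZT12 was left out. All 8 members also departed from a profile moved by 12 h, where 45.8% of all tested genes did. In whole kidney, fewer cells of a type and less RNA per cell cannot be told apart.

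The order of the day under NRF began with Ciart and Bhlhe41, which crested at 10.9 ± 0.309 h and 10.9 ± 0.380 h (peak of the fitted cosine ± SE). Per3, Per1 and Bhlhe40 followed at 12.0 ± 0.225 h, 12.0 ± 0.517 h and 12.1 ± 0.861 h, near lights off, and Cry2 at 12.8 ± 0.370 h. Per2 crested at 14.7 ± 0.254 h and Cry1, the last, at 17.8 ± 0.220 h. Cry1 followed Per2 by 3.04 h (95% interval 2.38 to 3.70), and Per2 followed Cry2 by 1.97 h (1.09 to 2.85). Per3 followed Bhlhe41 by 1.13 h (0.265 to 1.997). Ciart and Bhlhe41 did not differ beyond the errors of the fits, nor did any neighbours from Per3 through Per1 and Bhlhe40 to Cry2. These intervals between peaks took the errors of both genes as independent, although both were measured in the same samples. The covariance was not used here, so the intervals are approximate.

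Under DRF the order again ran from Ciart to Cry1, with wider errors. Ciart crested at 8.55 ± 0.353 h, Bhlhe41 at 9.37 ± 0.749 h, Per3 at 10.1 ± 0.352 h, Per2 at 11.4 ± 0.348 h, Cry2 at 12.7 ± 0.643 h and Cry1 at 15.6 ± 0.313 h. Cry1 followed Cry2 by 2.86 h (1.46 to 4.26) and Per2 followed Per3 by 1.34 h (0.369 to 2.31). The other neighbours among these 6 did not differ beyond the errors of the fits. As under NRF, the errors of both genes were taken as independent. The fitted crests of Per1 (11.1 ± 1.36 h) and Bhlhe40 (10.2 ± 1.31 h) come from profiles whose 24-h rhythm did not pass. From Ciart to Cry1 the members spanned 6.89 h under NRF and 7.03 h under DRF.

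**Figure D2:**
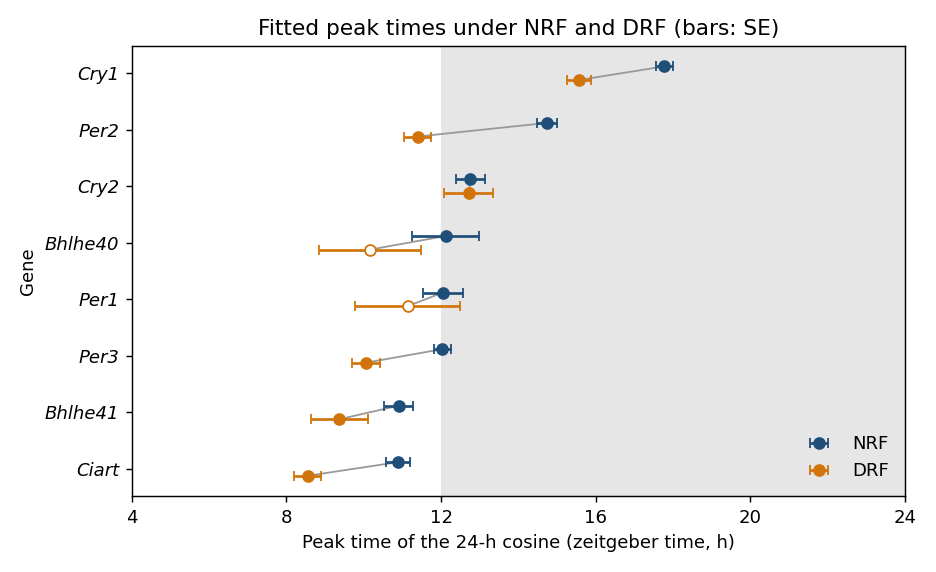
Peak time of the fitted 24-h cosine in hours of zeitgeber time for each gene under NRF (blue) and DRF (orange), with bars of 1 SE; open points mark a 24-h rhythm that did not pass under DRF, and grey marks the dark phase. Per2 moves from 14.7 to 11.4 h and Cry1 from 17.8 to 15.6 h, whereas the Cry2 points lie above each other at 12.8 and 12.7 h.

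The shift in phase could be tested for the 6 members rhythmic under both regimens, and 4 of them were called, all earlier under DRF. Of the 3144 genes rhythmic under both regimens, 78.1% were called and 58.6% were called earlier. Per2 moved by -3.34 ± 0.431 h (adjusted p = 1.49e-09), Ciart by -2.33 ± 0.469 h (adjusted p = 1.62e-05), Cry1 by -2.20 ± 0.382 h (adjusted p = 1.18e-06) and Per3 by -1.98 ± 0.418 h (adjusted p = 3.52e-05), and each call held in all 56 fits without a single library. The Cry1 call was lost when ZT0 and ZT24 were both left out, with a shift of -0.52 h. Bhlhe41 differed by -1.53 h (95% interval -3.22 to 0.15, adjusted p = 0.0909), and Cry2 by -0.05 h (-1.54 to 1.44, adjusted p = 0.954). By point estimate all 6 lay within 4 h of their NRF time, as 37.2% of the genes rhythmic under both regimens did. The 95% interval of Per2 (-4.20 to -2.47 h) reached past 4 h. None was moved by 8 h or more, as 28.9% of those genes were.

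Members did not all move by the same amount. Of the 15 pairs among these 6 members, 7 had a 95% interval of the difference in shift that left out 0, computed with the covariance of the 2 genes in the same samples. Per2 had moved further than Cry2 by 3.29 ± 0.735 h, than Bhlhe41 by 1.81 ± 0.809 h, than Per3 by 1.36 ± 0.382 h and than Cry1 by 1.14 ± 0.470 h. Cry2 had also moved less than Ciart, Cry1 and Per3, by 2.28 ± 0.814, 2.15 ± 0.793 and 1.93 ± 0.640 h. Among Ciart, Cry1, Per3 and Bhlhe41 no pair differed by this measure. Across the 8 shifts in order, no member differed from its neighbour.

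**Figure D3:**
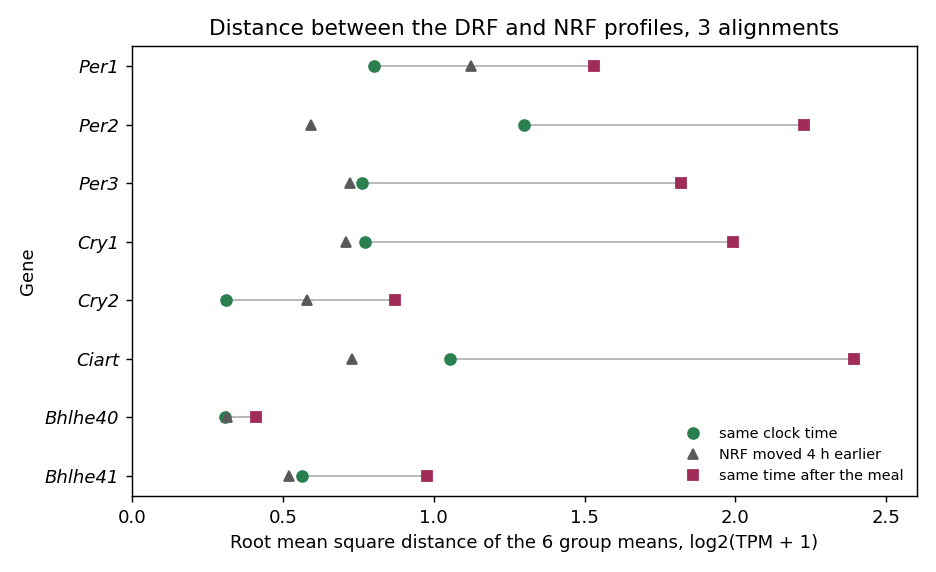
Root mean square distance, over 6 clock times, between the DRF and NRF group means on log2(TPM + 1) for each gene, with the profiles compared at the same clock time (circles), with the NRF profile moved 4 h earlier (triangles) and at the same time after the meal (squares). For every gene the circle lies left of the square, from 0.312 against 0.872 in Cry2 to 0.307 against 0.411 in Bhlhe40.

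The whole profiles were also compared without any cosine. All 8 members lay nearer to their NRF profile at the same clock time than at the same time after the meal, as 49.2% of all tested genes did. The hours of food access are not given in the sources used here, and meals 12 h apart were taken from the names of the regimens. The ratio of the clock-aligned to the meal-aligned distance ran from 0.358 for Cry2 to 0.748 for Bhlhe40. Among steps of 4 h, the best match was no move for Per1, Cry2 and Bhlhe40, and 4 h earlier for Per2, Per3, Cry1, Ciart and Bhlhe41. For Per2 a move of 4 h earlier brought the distance from 1.30 to 0.594, while for Per3, Cry1, Bhlhe40 and Bhlhe41 these distances differed by less than 0.1.

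Level by level, 16 of 48 member and time point pairs differed at the same clock time (16.7% of such pairs over all tested genes), and 35 of 48 differed at the same time after the meal (17.4% over all tested genes). The counts share libraries, and the meal-matched contrasts also averaged ZT0 with ZT24, which the clock-matched ones at ZT0 did not. Cry1 differed at all 6 meal-matched times and at 3 clock-matched ones, and Per1 at 5 and 1. Bhlhe40 differed at 1 of 6 by either alignment.

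The mean differences on the log2(TPM + 1) scale, which understates changes of low transcripts such as Bhlhe41, passed at 19 of 56 pairs once ZT24 was included, where 16.4% of all such pairs passed. Per2 and Cry1 had 4 each, Per3 3, Per1, Ciart and Bhlhe41 2 each, and Cry2 and Bhlhe40 1 each. ZT4 and ZT12 held 5 of these calls each, where 27.5% and 18.7% of tested genes passed. ZT0 and ZT24 held 3 each (16.9% and 14.7% of tested genes). ZT8, ZT16 and ZT20 held 1 each, where 15.1%, 4.89% and 16.9% of tested genes passed. At ZT8 the DRF and NRF samples overlapped for all 8 members, while 21.2% of tested genes did not overlap there. At ZT4 all 5 were higher under DRF, where 10.2% of tested genes were. At ZT12 4 members were lower under DRF (11.5% of tested genes) and 1, Cry1, was higher (7.21%).

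**Figure D4:**
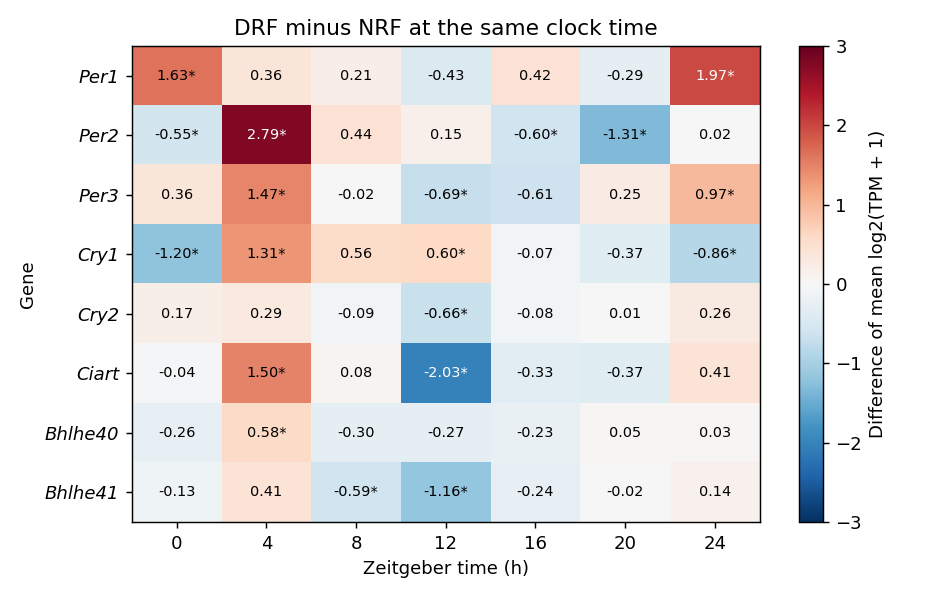
Difference of mean log2(TPM + 1), DRF minus NRF, for each gene (rows) at each zeitgeber time in hours (columns), in red where DRF was higher and in blue where it was lower; stars mark an adjusted p below 0.05. The ZT4 column is red in every row and largest in Per2 (2.79), and the ZT12 column holds the lowest value, -2.03 in Ciart.

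Per2, a period gene known to respond to feeding and to temperature, had the largest difference. At ZT4 its 4 DRF samples had 39.2, 33.1, 24.9 and 36.8 TPM, and its 4 NRF samples 2.93, 3.49, 4.78 and 4.79 TPM. The groups did not overlap (18.6% of tested genes did not at ZT4), and the difference was 2.79 ± 0.180 (adjusted p = 1.30e-15). At the other end of the profile, at ZT20, DRF samples had 10.5, 8.58, 14.6 and 13.4 TPM against 32.5, 33.8, 28.6 and 26.4 TPM under NRF. There the DRF samples were all lower (14.2% of tested genes did not overlap at ZT20), with a difference of -1.31 ± 0.180 (adjusted p = 9.30e-07). In between, at ZT12, the group means of 63.5 ± 11.1 and 56.5 ± 4.72 TPM did not differ by the test (adjusted p = 0.616). Under DRF the Per2 mean was 5.69 ± 0.848 TPM at ZT0, 33.5 ± 6.26 TPM at ZT4, 31.9 ± 8.63 TPM at ZT8 and highest at ZT12. Under NRF it was lowest at ZT4 and highest at ZT16 (74.6 ± 3.19 TPM). Smaller differences at ZT0 (-0.55, adjusted p = 0.0288) and ZT16 (-0.60, adjusted p = 0.0406), where the groups did not overlap either (20.1% and 11.2% of tested genes), were lost when single libraries were left out. At ZT0 this held for DRF replicates 2, 3 and 4 and NRF replicates 1 and 2 (adjusted p = 0.0503 to 0.116). At ZT16 it held for DRF replicates 2, 3 and 4 and all 4 NRF replicates (adjusted p = 0.0587 to 0.121).

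Per1, the early-response period gene, differed at lights on. At ZT0 DRF samples had 31.7, 29.1, 22.8 and 35.7 TPM and NRF samples 7.50, 7.13, 7.89 and 14.02 TPM. At ZT24 DRF samples had 29.4, 31.1, 28.4 and 36.2 TPM and NRF samples 7.53, 5.65, 9.23 and 6.79 TPM, the last in the library without a matching replicate number. All 8 DRF samples lay above all 8 NRF samples. The share over tested genes was counted only for 4 against 4 samples, where 20.1% did not overlap at ZT0 and 20.2% at ZT24. The Per1 differences were 1.63 ± 0.288 (adjusted p = 5.76e-05) at ZT0 and 1.97 ± 0.288 (adjusted p = 4.39e-06) at ZT24. Under DRF, Per1 was at 12.6 ± 3.02 TPM at ZT4 and at 51.5 ± 6.93 TPM at ZT12, so that its day held separate crests at lights on and lights off. At ZT4 the difference of 0.36 did not pass (adjusted p = 0.384), but did without NRF ZT4 replicate 4 (0.75, adjusted p = 0.0439). At ZT12, where NRF samples had 69.0, 65.8, 71.2 and 71.7 TPM and DRF samples 45.7, 57.2, 45.3 and 57.8 TPM, the groups did not overlap (22.7% of tested genes did not at ZT12), yet the difference of -0.43 did not pass (adjusted p = 0.322). The daily mean of Per1 was higher under DRF by 0.34 ± 0.113 (adjusted p = 0.0437), a call that stood in 25 of 56 fits without a single library.

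Per3, the period gene with D-boxes and no E-box in the stretch printed above, had a flatter day under DRF. At ZT12 its DRF samples had 31.9, 27.9, 30.1 and 23.6 TPM and its NRF samples 48.6, 43.99, 47.9 and 43.8 TPM. Every NRF sample was above every DRF sample, and the difference was -0.69 ± 0.208 (adjusted p = 0.0151, and 0.0635 without DRF ZT12 replicate 4). At ZT4 the order was turned, with 24.1, 21.8, 20.8 and 25.9 TPM under DRF and 4.42, 7.76, 11.1 and 9.00 TPM under NRF (difference 1.47 ± 0.208, adjusted p = 6.68e-07). From ZT4 to ZT12 the DRF means stayed between 23.2 and 28.4 TPM, while the NRF means ran from 8.07 to 46.1 TPM. At ZT24, but not at ZT0, Per3 was also higher under DRF (difference 0.97 ± 0.208, adjusted p = 0.000906).

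Cry1, the late repressor that holds the activator off until morning, was lower at lights on under DRF. At ZT0 its DRF samples had 5.54, 6.33, 5.14 and 7.24 TPM and its NRF samples 16.1, 17.0, 12.6 and 15.2 TPM. The DRF samples were all lower, with a difference of -1.20 ± 0.201 (adjusted p = 2.56e-05). At ZT4 DRF samples had 10.5, 6.33, 4.86 and 11.3 TPM and NRF samples, near the floor of the day, 2.55, 2.51, 2.38 and 2.78 TPM. There the DRF samples were all higher, by 1.31 ± 0.201 (adjusted p = 2.60e-06), and the NRF values rest on 56 to 70 reads each. The crest at ZT16 stood at 32.3 ± 0.622 TPM under DRF and 34.3 ± 4.57 TPM under NRF (difference -0.07 ± 0.201, adjusted p = 0.884). At ZT12 Cry1 was higher under DRF by 0.60 ± 0.201 (adjusted p = 0.0302), a call lost without DRF ZT12 replicate 4 (adjusted p = 0.0878) or NRF ZT12 replicate 1 or 2 (adjusted p = 0.112 and 0.0885). At ZT24 it was lower, with a difference of -0.86 ± 0.201 (adjusted p = 0.00236), or -0.50 without DRF ZT24 replicate 4 (adjusted p = 0.0367).

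Cry2, the paralog of Cry1 with its own E'-box and no E-box in the printed stretch, differed most at ZT12. There its DRF samples had 17.0, 15.98, 17.9 and 15.5 TPM and its NRF samples 28.5, 26.1, 28.7 and 24.3 TPM. The groups did not overlap, and the difference was -0.66 ± 0.133 (adjusted p = 0.000287). At the other 6 time points the differences lay between -0.09 and 0.29 and none passed. The Cry2 difference at ZT4 passed under median-of-ratios scaling (0.35, adjusted p = 0.0221) and without DRF ZT4 replicate 3 (0.40, adjusted p = 0.0294), and that at ZT24 without DRF ZT24 replicate 4 (0.397, adjusted p = 0.0396). At ZT8 it was 0.06 without NRF ZT8 replicate 4 (adjusted p = 0.840). From ZT8 to ZT20 its DRF means stayed between 16.6 and 18.9 TPM, whereas the NRF mean reached 26.9 ± 2.12 TPM at ZT12.

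Ciart, the member with 3 E-boxes, had group means up to 24.2 times apart under NRF, the widest fold of the 8, while its fitted amplitude (1.8504) was below that of Per2 (1.912). At ZT12 its DRF samples had 10.8, 10.3, 8.91 and 11.3 TPM and its NRF samples 49.1, 44.4, 48.3 and 39.5 TPM. The NRF mean was 4.39 times the DRF mean with no overlap, a difference of -2.03 ± 0.204 (adjusted p = 6.97e-09). At ZT4 DRF samples had 9.10, 8.58, 9.96 and 9.25 TPM and NRF samples 2.96, 2.08, 2.70 and 2.75 TPM, a difference of 1.4998 ± 0.204 (adjusted p = 3.22e-07). The DRF profile thus stood above the NRF profile in the morning and below it at dusk. At ZT8 the 4 NRF samples spread from 15.9 to 51.6 TPM around the DRF samples (20.2 to 34.6 TPM), and the difference of 0.08 did not pass (0.42 without NRF ZT8 replicate 4, adjusted p = 0.134). An annotated transcript antisense to Ciart, C920021L13Rik, overlaps it, and the library was not stated to keep strand, so reads of the pair cannot be told apart. The same holds for Bhlhe40 with 0610040F04Rik, Cry2 with D930015M05Rik and Bhlhe41 with Gm43909, and Per3 overlaps Camta1 on the same strand.

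Bhlhe40, the most abundant member with a mean of 122 TPM, had the smallest swing, at 2.12 times between group means under NRF and 2.07 times under DRF. At ZT4 its DRF samples had 181, 150.5, 161 and 162 TPM and its NRF samples 107, 99.98, 111 and 119 TPM. The groups did not overlap, and Bhlhe40 was higher under DRF by 0.58 ± 0.166 (adjusted p = 0.00717). No other time point passed with all libraries. At ZT8 the NRF samples spread from 94.96 to 284 TPM, and the difference was -0.30 (adjusted p = 0.230). It was -0.56 without NRF ZT8 replicate 1 (adjusted p = 0.00802) and -0.04 without NRF ZT8 replicate 4 (adjusted p = 0.911).

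Bhlhe41, the least abundant member with a mean of 2.26 TPM and 34 to 342 reads per library, was lower under DRF around its crest. At ZT12 its DRF samples had 2.36, 2.29, 1.41 and 1.94 TPM and its NRF samples 6.39, 5.29, 6.71 and 4.39 TPM. The NRF mean was 2.85 times the DRF mean with no overlap, a difference of -1.16 ± 0.182 (adjusted p = 9.57e-06). At ZT8 the means were 3.34 ± 0.937 TPM under DRF and 5.54 ± 1.404 TPM under NRF, and the difference of -0.59 (adjusted p = 0.0214) was lost without NRF ZT8 replicate 4 (-0.46, adjusted p = 0.116) or DRF ZT8 replicate 3 or 4 (adjusted p = 0.107 and 0.0672). Without NRF ZT8 replicate 4, Per2 (0.58, adjusted p = 0.0366) and Cry1 (0.66, adjusted p = 0.0393) instead passed at ZT8. Per2 (0.63, adjusted p = 0.0188) and Cry1 (0.66, adjusted p = 0.0380) also passed there without DRF ZT8 replicate 3. At ZT4 Bhlhe41 passed without NRF ZT4 replicate 3 (0.63, adjusted p = 0.00847, against 0.41 and 0.0858 with it). Its daily mean was lower under DRF, with a difference of -0.27 ± 0.071 (adjusted p = 0.0114), in 56 of 56 fits without a single library. Per1 and Bhlhe41 were the 2 members with a called difference of the daily mean, where 9.12% of tested genes had one.

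The 24-h swing was smaller under DRF by point estimate in all 8 members, with amplitude ratios of DRF to NRF from 0.379 in Per1 to 0.822 in Ciart. Per3 alone passed (ratio 0.623, log2 ratio -0.68 ± 0.145, adjusted p = 0.00451), where 1.37% of the 3144 genes rhythmic under both regimens passed. Per1 and Bhlhe40 were not tested, since their DRF rhythm did not pass, and the 95% interval of the Per1 log2 ratio was -2.38 to -0.42. The Per3 call was lost without ZT8, ZT12 or replicate 2 of all groups. Bhlhe41 (ratio 0.488, adjusted p = 0.0701) and Cry2 (ratio 0.575, adjusted p = 0.0877) did not pass. The 95% interval of the log2 ratio was -0.69 to -0.09 for Per2 and -0.63 to 0.06 for Ciart.

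**Figure D5:**
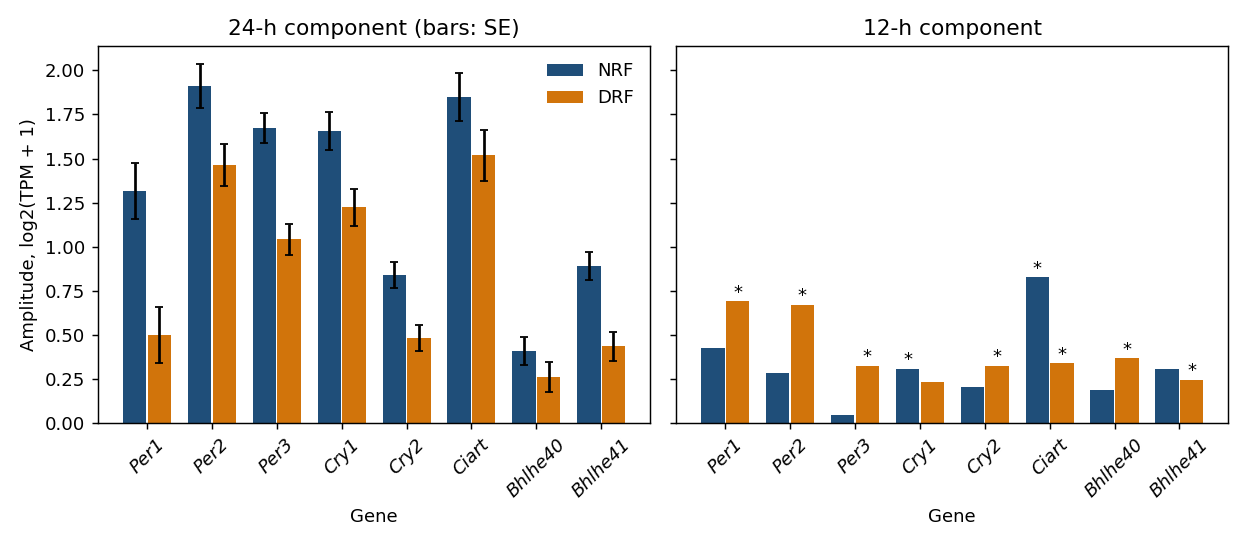
Amplitude on log2(TPM + 1) of the 24-h cosine (left, with bars of 1 SE) and of the added 12-h component (right, stars for an adjusted p below 0.05) for each gene under NRF (blue) and DRF (orange). The blue bar is the taller in each pair at left, and at right the DRF component passes in all genes but Cry1 and is the larger in Per1, Per2, Per3, Cry2 and Bhlhe40.

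Under DRF the daily profile of 7 of 8 members held a 12-h component beside the 24-h rhythm, where 24.5% of tested genes did, and Cry1 did not pass (adjusted p = 0.249). Without ZT0 and ZT24 the component was called in 2 members. Under NRF 2 of 8 did, Cry1 (adjusted p = 0.0362) and Ciart (adjusted p = 4.40e-05), where 0.679% of tested genes did. Under DRF the component was largest in Per1 (amplitude 0.69, adjusted p = 0.000348) and Per2 (0.67, adjusted p = 9.36e-05), and its first daily crest fell at 11.8 h in Per1 and at 3.87 h in Per2. In Per3, Bhlhe40, Cry2, Bhlhe41 and Ciart that crest fell at 4.83, 5.40, 6.26, 6.56 and 7.50 h. A crest at 11.8 h repeats 12 h later near lights on, so the component of Per1 crested near both light changes and those of the other members between them. The fitted 24-h peaks of these 7 members under DRF are therefore summaries of profiles that were not simple cosines. The same holds for the NRF peaks of Ciart and Cry1, and so for their phase shifts. The Ciart component was larger under NRF (amplitude 0.827) than under DRF (0.338). Between ZT0 and ZT24, which are a day apart, none of the 8 members differed in either regimen by limma, where 0.704% of tested genes did under NRF and 0% under DRF. Without adjustment at the same threshold of 0.05, 0 members passed under NRF (7.7% of tested genes) and 1, Per2, passed under DRF (4.15%).

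The other genes of the clock were described from lists. Of the activators and the REV-ERB/ROR loop, 7 of 8 were tested (Rorb was not) and all 7 were rhythmic under both regimens, 5 with an earlier and 1 with a later phase under DRF. Among them Nr1d1, which encodes the repressor REV-ERBalpha, moved by -2.64 h, the activator partner Npas2 by -1.91 h and Arntl, which encodes BMAL1, by -2.07 h, and the later gene was Rora (8.48 h, on an amplitude of 0.30). All 4 of the PAR bZIP factors and Nfil3 were rhythmic under both, and Dbp (-2.80 h), Nfil3 (-2.12 h) and Tef (-1.55 h) were called earlier. The median signed shift was -2.09 h over the 6 members, -1.73 h over the activator list, -1.83 h over the PAR bZIP list and -3.51 h over all 3144 genes. Earlier and later shifts offset each other in that measure. The median absolute shift was 2.09, 1.91, 1.83 and 5.44 h in the same order. The exon lengths behind Nr1d1 and Dbp could not be settled, so their values are less exact than those of the other genes in these lists.

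Of 12 tested genes that act on PER and CRY protein, 5 were rhythmic under both regimens and all 5 were called earlier under DRF. The deubiquitinase gene Usp2 moved by -1.72 h, close to the members, whereas Fbxl21, whose product acts on CRY stability, moved by -7.71 h. Neither Csnk1d, Csnk1e, Fbxw11, Gsk3b, Prkaa1, Prkaa2 nor Timeless had a called rhythm in both regimens. Of 5 genes induced by glucocorticoids, 4 were rhythmic under both and Tsc22d3 was called earlier (-3.07 h), while Zbtb16 (1.70 h, adjusted p = 0.132), Fkbp5 (0.33 h, adjusted p = 0.711) and Sgk1 (-2.24 h, adjusted p = 0.0842) were not called and Klf9 had no called rhythm under DRF. Of 6 genes that respond to temperature and heat shock, Cirbp and Rbm3 were rhythmic under both regimens. Both encode cold-inducible RNA-binding proteins, and they moved by -7.97 and -6.56 h. Hspa1a, Hspa1b, Hsph1 and Hspa8 were not rhythmic under both. The exon lengths of Hspa1a and Hspa1b could not be settled, so their values are less exact.

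Genes with the profile most like each member's were found by Pearson's r of the 14 group means over 56 samples. For Per1 these were Lpin1 (r = 0.921) and Zbtb16 (r = 0.915), for Per2 Ak4 (r = 0.945) and Cipc (r = 0.944), and for Per3 Tef (r = 0.980) and Cpeb3 (r = 0.959). Cry1 was near Lypla1 (r = 0.970), Cry2 to Hlf (r = 0.919) and Gm38529 (r = 0.907), and Ciart to Cpeb3 (r = 0.937) and Slc13a2 (r = 0.932). Bhlhe40 had the loosest matches, Pcbp3 (r = 0.870) and Ablim1 (r = 0.849), and Bhlhe41 lay near Tax1bp1 (r = 0.923) and Tns2 (r = 0.905). All group means come from the same libraries, so these values describe likeness only.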

How the data were processed

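Poly(A) RNA of 56 kidney samples was sequenced on 1 platform. The deposited table holds a score per gene and sample that the authors named TPM. The authors' processing notes name HISAT2, Bowtie2, RSEM and the builds mm10 and GRCm38.p6, without versions. Within a sample the deposited score was read as log2(CPM + 1) divided by exon length and scaled to a common sum. With GENCODE exon lengths this gave whole reads (within 0.05 read) for 13673 of the 17027 genes, and partly for 774. The lengths of 1122 more were found by a search for whole reads, so that 15569 genes had settled lengths. Whole reads were recovered for 98.2% of the values of these genes and for 100% of the members' values. Genes were counted as settled by this same wholeness, so the 98.2% is not a separate test. TPM on a linear scale were computed from the recovered reads. The score also had 1296 genes of unsettled length.

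The members and lists were chosen with earlier results of these data known. Genes with a mean of at least 1 TPM were tested with limma 3.58.1 (R 4.3.3, variance trend) on log2(TPM + 1), a pseudocount of 1, with Benjamini-Hochberg adjusted p below 0.05. The tests were F tests of a 24-h cosine per regimen, of its equality between regimens, of a 12-h inversion and of an added 12-h component, delta-method Wald tests of phase and amplitude, and contrasts of group means. All 8 members were named, with the 2 genes most like each by correlation, the 3 genes of largest NRF amplitude in each list and those without a rhythm in both regimens. Some genes that this rule names are not reported here. On simulated data of 10947 genes, 91% of the rhythms of amplitude 0.5 added under NRF were recovered. Meal-matched contrasts, single-library fits and the pairs of shifts were added after seeing the data. Library sizes, fitted from the deposited score and not read from the sequencing itself, were 24.8 to 28.9 M reads. 1 NRF ZT24 column carried no matching replicate number and was used as the remaining sample of its group.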

Additional observations from a re-analysis of the deposited data

Results flagged for a closer look

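Single samples stood far from the other 3 of their group in 6 of the 112 member and group combinations, by Dixon's test, where chance gives about 1 in 20. They were Per1 in NRF ZT0 replicate 4 (14.02 TPM, the others 7.132 to 7.886), Per2 in NRF ZT24 replicate 3 (6.84 TPM, the others 7.665 to 7.73) and Cry2 in NRF ZT8 replicate 4 (26.26 TPM, the others 17.06 to 17.19). The others were Ciart in DRF ZT16 replicate 1 (5.621 TPM, the others 3.385 to 3.747), Bhlhe40 in NRF ZT16 replicate 4 (179.9 TPM, the others 145.1 to 150.5) and Bhlhe40 in NRF ZT24 replicate 1 (93.99 TPM, the others 79.35 to 80.18).

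The 24-h rhythm differed between DRF and NRF in 7 members by limma's F test of the interaction. The adjusted p was 0.00628 for Per1, 6.77e-08 for Per2, 3.82e-07 for Per3, 4.45e-06 for Cry1, 0.0124 for Cry2, 8.31e-05 for Ciart and 0.00064 for Bhlhe41.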

How the results depend on the processing

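Over all alternatives, the number of members with a called 24-h rhythm ran from 7 to 8 under NRF and from 5 to 8 under DRF, and the number with a called phase shift from 3 to 5. The interaction (7 members) fell to 4 without ZT12. The 12-h component under DRF (7 members) fell to 2 without ZT0 and ZT24. Calls of an amplitude difference (1 member) numbered 3 without ZT0 and ZT24 and on linear TPM, 2 without ZT4, ZT16 or ZT20, and 0 without ZT8 or ZT12, with 0 to 1 when a replicate was left out. Calls of a difference of the daily mean (2 members) numbered 1 with no filter, at a mean of at least 5 TPM (which drops Bhlhe41), without the unnumbered NRF ZT24 library, without ZT8 and without ZT24 only, and 4 without ZT4 or ZT20, with 0 to 1 when a replicate was left out. The 12-h component under NRF (2 members) was called in 1 on the deposited values, with limma voom, without ZT24 only, without ZT0 only and without any 1 replicate, and in 4 without ZT12 or ZT16.

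The Cry2 phase difference, which did not pass, changed sign: it was 1.08 h without ZT0 and ZT24, 0.48 h without ZT4, 0.49 h without ZT8, 0.018 h without ZT24 only, 0.061 h without ZT0 only, 0.14 h on linear TPM and -0.73 to 0.34 h when a replicate was left out (0.22 h without replicate 1). Without ZT4 the Per2 daily mean difference became -0.32, the Cry1 log2 amplitude ratio 0.055 and the Bhlhe40 phase difference 1.20 h. The Ciart log2 amplitude ratio became 0.13 without ZT12, and the Per1 phase difference 2.84 h without ZT20. The cause was not tested in any of these cases.

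The deviations of samples with the same replicate number correlated above 0.1 in 13 of 27 pairs of groups (range -0.44 to 0.70, median 0.077). Over all groups the mean r was 0.011 for samples of the same number and -0.0011 for samples of other numbers. With the replicate number as a block, which also leaves out the unnumbered library, the 12-h component under NRF was called in 1 member and a difference of the daily mean in 2. Without that library and with no block these counts were 2 and 1, and the interaction, phase shift, amplitude and 12-h DRF counts were the same in both fits. The number of reads limits Bhlhe41 most, with 34 to 342 reads per library.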
